A study of Mus musculus with 6 samples.

Results

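The genes described here encode cation channels of the cell surface and of calcium stores: voltage-gated calcium channels and their auxiliary subunits (Cacna, Cacnb and Cacng), voltage-gated sodium channels (Scn), pacemaker channels (Hcn), transient receptor potential channels (Trpa, Trpc, Trpm and Trpv) and the calcium release channels of the endoplasmic reticulum (Itpr and Ryr). They were picked by a pattern of symbols, set with earlier results of these data known, and 73 of the 23284 genes in the count files matched. One of them, Trpc4ap, matched by its name but encodes an adaptor protein and not a channel. Pancreatic islets of mice 12 weeks old were profiled by bulk RNA-seq, with 3 libraries in each of 2 groups. The knockout group carried Neurod1-floxed alleles on both chromosomes together with the Rip-Cre transgene, and the control group carried the same floxed alleles without Cre; the strain of both is given as C56BL/J. Rip-Cre puts the recombinase under the rat insulin promoter, which aims it at beta cells, while whole islets also hold other endocrine cells. Controls lacked the transgene, so effects of Cre and of the deletion cannot be told apart.

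In a beta cell, glucose metabolism closes ATP-sensitive potassium channels and the membrane depolarises, which opens voltage-gated calcium channels, and calcium entry then sets off insulin release. A voltage-gated calcium channel has 1 pore subunit (Cacna1), whose trafficking and gating are shaped by a cytosolic beta subunit (Cacnb) and an extracellular subunit (Cacna2d). Sodium channels and Trp channels add inward current, and inositol trisphosphate receptors (Itpr) release calcium from the endoplasmic reticulum after hormone or neurotransmitter receptors act.

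Total counts per library ranged from 12206393 to 20412435. Neurod1 was at 28.4, 29.8 and 31.3 CPM (counts per 1000000 counts, scaled by edgeR's TMM factors) in knockout libraries 4, 5 and 6 and at 198, 177 and 141 CPM in control libraries 7, 10 and 16, so that 17.3% of the control mean was left. All 11 beta cell markers had counts in every library (4 higher and 3 lower in the knockout), and they summed to 174940 to 193190 CPM in control and 132910 to 149660 CPM in knockout libraries. The lower sum rests on the insulin gene Ins1, which went from 48668 ± 3300 to 4307 ± 1529 CPM (SD, n = 3 each). The other 10 summed to 129700 to 141370 and 129850 to 143650 CPM, with overlap. Most of that sum is Ins2 (111006 ± 5361 CPM in control and 113090 ± 7417 CPM in knockout), so it says little about the rest. Among these, G6pc2 (-1.04) and Slc30a8 (-0.53) were lower, and Glp1r (1.10), Pdx1 (0.93), Nkx6-1 (0.47) and Slc2a2 (0.35) were higher. Markers of 9 further cell types that picked islets can hold also had counts in every library. The 10 alpha cell markers summed to 38589 to 51748 CPM in control and 27891 to 36693 CPM in knockout libraries, without overlap. Of these 10, 2 were lower and 1 was higher, and Gcg, most of the sum, did not pass (-0.45, adjusted p = 0.0663). The 7 fibroblast markers summed to 582 to 863 and 407 to 553 CPM, also without overlap (3 lower, none higher). Delta, duct and leukocyte sums overlapped. The part of alpha cells and fibroblasts in the channel genes was not tested. In whole islets, fewer cells of a type and less RNA per cell cannot be told apart.

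Of the 73 genes, 56 had enough counts to be tested with edgeR's quasi-likelihood test, and 19 of them passed an adjusted p of 0.05, which was adjusted over all 14770 genes tested. In the knockout 5 of the 19 were higher and 14 were lower. The higher genes were Trpm3, Trpc5, Trpc7, Itpr2 and Itpr1. The lower genes included the calcium channel genes Cacna1c, Cacna1d, Cacna2d1, Cacnb1 and Cacnb3, the sodium channel genes Scn1a and Scn3a, the pacemaker gene Hcn3, the release channel gene Itpr3, and the Trp genes Trpc4, Trpm4, Trpm5 and Trpv4. Among all genes tested 24.4% passed, 11.8% as higher and 12.6% as lower, against 8.93% and 25% of the 56. The median log2 difference of the 56 was -0.31, and that of all genes tested was -0.01. Filtering on counts can favour a gene that is high in 1 group alone. Scn1a met the minimum only in the control libraries. Trpc5 met it in all knockout libraries but, with 5, 15 and 4 counts, not in all control libraries. The shares above thus describe the tested genes and not all 73. The authors' deposited table has 5 of the 73 higher and 12 lower at an adjusted p of 0.05 (6.66% and 6.19% of all genes with a value there), and these 17 are also among the 19.

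**Figure D1:**
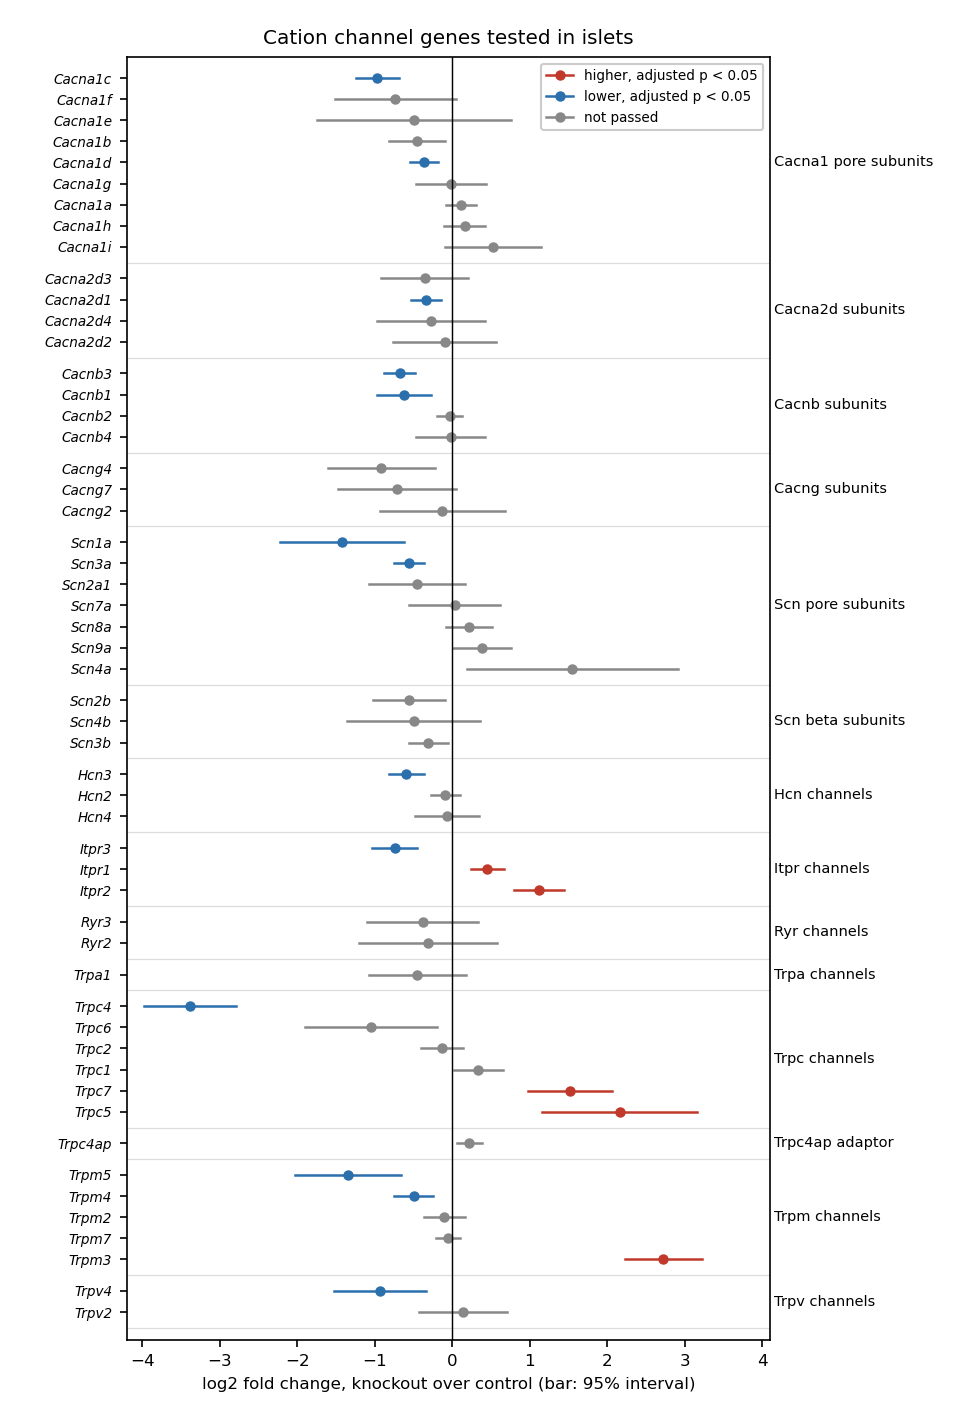
Log2 fold change of knockout over control islets for 53 of the 56 cation channel genes tested, grouped by family, with 95% intervals from edgeR. Trpc4 lies lowest at -3.38 and Trpm3 highest at 2.72.

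Promoter sequence was looked at for the 19 genes, since Neurod1 is a basic helix-loop-helix factor and such factors bind E-boxes, short sites of the form CANNTG. RefSeq windows of 300 bases (250 before and 50 after an annotated start, build GRCm38.p6) were found for 14 of the 19, and Hcn3, Itpr1, Scn3a and Trpm4 were among those with no entry. On both strands, the E-box variant CAGATG, which is 1 form of CANNTG, stood in 3 of 15 windows of lower genes (20%) and in 0 of 5 windows of higher genes, against 17.15% of all 32851 windows. Any CANNTG stood in 10 of the 15 and 4 of the 5, against 72.31% of all windows. These shares come from a few windows and lie near their background. The 3 windows with CAGATG belong to Cacnb3 and to 2 inner starts of Cacna1c, and they are printed with those of Trpc4 and Trpm3, the genes with the largest fall and the largest rise of the 19. Only the 250 bases before each start are shown, 5′ to 3′ along the gene's strand, and capitals mark CANNTG.
Trpc4, GRCm38.p6 chr3:54155807-54156056, plus strand: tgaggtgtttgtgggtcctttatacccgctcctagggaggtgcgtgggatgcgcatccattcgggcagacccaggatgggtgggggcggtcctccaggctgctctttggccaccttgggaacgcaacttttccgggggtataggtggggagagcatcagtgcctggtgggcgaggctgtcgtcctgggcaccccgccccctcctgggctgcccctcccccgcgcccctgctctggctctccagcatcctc
Cacnb3, GRCm38.p6 chr15:98632078-98632327, plus strand: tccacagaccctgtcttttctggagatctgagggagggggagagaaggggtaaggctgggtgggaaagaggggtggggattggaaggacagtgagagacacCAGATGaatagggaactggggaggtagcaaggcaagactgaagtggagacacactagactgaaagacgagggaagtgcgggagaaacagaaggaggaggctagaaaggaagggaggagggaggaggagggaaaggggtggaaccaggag
Cacna1c, a start inside the longest gene model, GRCm38.p6 chr6:119108496-119108745, minus strand: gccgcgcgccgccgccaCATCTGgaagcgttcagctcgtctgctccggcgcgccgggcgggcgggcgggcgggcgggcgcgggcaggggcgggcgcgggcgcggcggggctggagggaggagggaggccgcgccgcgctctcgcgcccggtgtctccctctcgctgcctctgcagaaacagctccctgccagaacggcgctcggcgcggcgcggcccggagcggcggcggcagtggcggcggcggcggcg
Cacna1c, a further such start, GRCm38.p6 chr6:118757975-118758224, minus strand: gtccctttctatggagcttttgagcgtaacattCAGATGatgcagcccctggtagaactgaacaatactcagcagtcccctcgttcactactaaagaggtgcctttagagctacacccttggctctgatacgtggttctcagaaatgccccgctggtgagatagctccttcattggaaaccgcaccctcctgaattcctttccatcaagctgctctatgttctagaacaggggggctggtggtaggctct
Trpm3, first window, GRCm38.p6 chr19:22138796-22139045, plus strand: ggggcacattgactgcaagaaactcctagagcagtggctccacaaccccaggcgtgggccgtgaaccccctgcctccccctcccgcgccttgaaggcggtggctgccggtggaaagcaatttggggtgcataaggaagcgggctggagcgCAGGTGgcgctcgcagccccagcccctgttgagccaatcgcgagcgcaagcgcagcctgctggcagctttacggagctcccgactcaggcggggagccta
Trpm3, second window, GRCm38.p6 chr19:22447958-22448207, plus strand: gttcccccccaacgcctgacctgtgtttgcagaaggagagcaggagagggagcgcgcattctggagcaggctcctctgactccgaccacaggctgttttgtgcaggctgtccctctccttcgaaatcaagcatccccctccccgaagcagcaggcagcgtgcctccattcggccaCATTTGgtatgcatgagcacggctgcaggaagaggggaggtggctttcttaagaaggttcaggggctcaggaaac
The Trpc4 stretch holds no capitals, since its single CANNTG lies after the start. Both Trpm3 windows hold 1 CANNTG in the printed part, of other forms than the CAGATG of Cacnb3 and Cacna1c (which also reads as its reverse complement, CATCTG), and the second holds a further one outside it. Further windows of Cacna1c (3 CANNTG) and Cacnb3 (0) are not printed, since they hold no CAGATG. A match is a string of letters and not a measured binding site.

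Among the voltage-gated calcium channels, the L-type pore genes Cacna1c and Cacna1d fell, while the pore gene of the P/Q type did not differ beyond its error. Cacna1c encodes an L-type pore and was at 46.9, 56.4 and 44.9 CPM in control libraries 7, 10 and 16 and at 21.9, 28.3 and 25.9 CPM in knockout libraries 4, 5 and 6. All knockout values lay below all control values, with a log2 fold change of -0.97 (SE 0.12, adjusted p = 9.05e-04), a 1.95-fold fall. Cacna1d, the other L-type pore gene of beta cells, was at 183, 192 and 171 CPM in control and 131, 153 and 139 CPM in knockout libraries. Here too the groups did not overlap, but the change was smaller (-0.37, SE 0.08, adjusted p = 0.0119). Without knockout library 4 Cacna1d missed the threshold (adjusted p = 0.0604), and with acinar marker content (log2 of the summed CPM of acinar markers) as a further term in the fit it was at -0.20 (adjusted p = 0.240). The span of Cacna1d overlaps those of Chdh (-1.10, adjusted p = 0.0426) and Dcp1a (-0.21, adjusted p = 0.0565), and that of Cacna1c overlaps Dcp1b (-0.38, adjusted p = 0.0642). Whether reads were counted by strand is unknown here, so reads of such pairs may be shared. Cacna1a, the P/Q-type pore, had overlapping groups of 106 to 118 CPM in control and 107 to 129 CPM in knockout, and its difference of 0.11 had a 95% interval of -0.08 to 0.30.

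Counted per kilobase of gene model, Cacna1d and Cacna1a made up most of the pore message. In control islets Cacna1d was at 20.3 ± 1.21, Cacna1a at 14.1 ± 0.74 and Cacna1c at 3.25 ± 0.40 CPM per kb (SD, n = 3 each), and the ranges of these neighbours did not overlap. In knockout islets Cacna1d (14.6 to 17.04 CPM per kb) and Cacna1a (13.5 to 16.3 CPM per kb) overlapped. The share of Cacna1d in the summed level of all pore genes was 47.3 ± 0.76% in control and 41.8 ± 1.36% in knockout, that of Cacna1c 7.55 ± 0.49% and 4.41 ± 0.26%, and that of Cacna1a 32.8 ± 1.30% and 40.2 ± 1.92%. Of the 9 pore genes tested, 2 fell (22.2%) and 7 did not pass. Among all genes tested 24.4% passed in either direction and 12.6% as lower, so the share called is near its background. Cacna1b (N type) was at 14.2 to 17.4 CPM in control and 9.27 to 13.7 CPM in knockout libraries and missed the threshold (-0.45, adjusted p = 0.0708). For the R-type gene Cacna1e the libraries spread widely, from 3.64 to 12.2 CPM in control and from 2.95 to 7.31 CPM in knockout, and the interval of its difference ran from -1.75 to 0.75. The T-type genes Cacna1g, Cacna1h and Cacna1i differed by -0.02, 0.16 and 0.52 with overlapping groups. Of the 2 further L-type genes, Cacna1f did not pass (-0.73, adjusted p = 0.154), and the skeletal muscle gene Cacna1s was too low to be tested, with 30 counts over the 6 libraries.

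Of the subunits that accompany the pore, 2 of 4 Cacnb, 1 of 4 Cacna2d and 0 of 3 Cacng genes tested passed, all as lower. Among all genes tested 24.4% passed in either direction and 12.6% as lower, and the counts here are small. Cacnb3, a cytosolic beta subunit, was at 71.0, 63.0 and 67.5 CPM in control and 37.6, 45.9 and 42.6 CPM in knockout libraries. The groups were far apart compared with their spread (-0.68, SE 0.09, adjusted p = 0.00112). Cacnb1 was at 16.01, 13.1 and 17.6 CPM in control and 10.01, 8.71 and 11.7 CPM in knockout libraries (-0.62, SE 0.15, adjusted p = 0.0182). Its adjusted p rose as far as 0.0608 in 4 fits that each left out 1 library, namely knockout 4 or 5 or control 7 or 16, and it was 0.0529 with the acinar term (-0.82). Its span overlaps Rpl19, which did not pass (-0.20, adjusted p = 0.260). Cacnb2, the second beta subunit of islets by level, did not differ beyond its error, at 49.4 to 56.8 CPM in control and 50.6 to 52.7 CPM in knockout libraries (-0.03, 95% interval -0.20 to 0.13). In the summed beta subunit level per kb the share of Cacnb2 was 28.6 ± 1.76% in control and 38.1 ± 2.38% in knockout, and that of Cacnb3 59.2 ± 0.33% and 50.2 ± 2.83%. The total of the 4 genes went from 38.3 ± 2.11 to 28.2 ± 1.28 CPM per kb. Cacnb4 differed by -0.02 and did not pass.

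Cacna2d1 encodes the main extracellular subunit in these islets, with 85.0% of the summed Cacna2d level per kb in control. It was at 175, 178 and 158 CPM in control and 123, 146 and 135 CPM in knockout libraries, with no overlap (-0.34, SE 0.09, adjusted p = 0.0203). With 1 library left out the call was lost for knockout 4, knockout 6, control 7 and control 10, with adjusted p up to 0.0904. With the acinar term Cacna2d1 was at -0.14 (adjusted p = 0.396). The differences of Cacna2d2, Cacna2d3 and Cacna2d4 lay between -0.36 and -0.10 and did not pass. In the Cacng family, whose members regulate calcium channels or AMPA receptors, 3 of 8 genes were tested and none passed (adjusted p from 0.0594 to 0.823). The most abundant, Cacng4, was at 3.62, 4.37 and 6.52 CPM in control and 3.38, 2.35 and 1.85 CPM in knockout libraries (-0.92). Its groups did not overlap, but the closest pair, 3.38 and 3.62 CPM, nearly met. Cacng1, Cacng3, Cacng5, Cacng6 and Cacng8 had 2 to 18 counts over the 6 libraries.

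**Figure D2:**
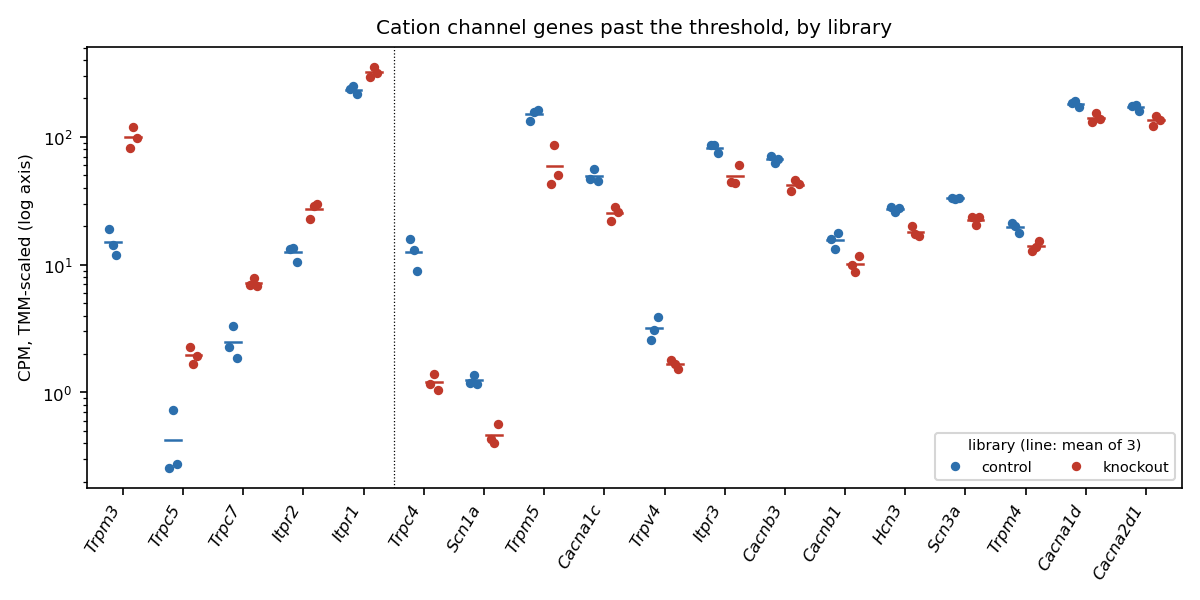
CPM on a log axis in each library for 18 of the 19 cation channel genes past the threshold, with higher genes left of the dotted line and lower genes right of it; horizontal lines are group means of 3 libraries. In each of the 18 genes the knockout and control libraries do not overlap. The genes were picked by a test on these same values, so this adds no support. Groups did not overlap in 42% of all genes tested.

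Among the sodium channel pore genes 2 fell, and none rose past the threshold. Of the auxiliary beta subunits described here, which modulate gating, none passed. Scn3b was at 21.5 to 25.9 CPM in control and 18.4 to 21.7 CPM in knockout libraries, with overlap (-0.31, adjusted p = 0.0757). Scn2b was at 5.84 to 9.47 and 5.16 to 5.79 CPM, and its groups lay close together without overlap (-0.56, adjusted p = 0.0776). Both passed when control library 7 was left out (lowest adjusted p = 0.0497 for Scn3b and 0.0221 for Scn2b). Scn4b had overlapping groups (-0.50, adjusted p = 0.371).

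Of 10 pore genes of this family, 7 were tested and 2 fell (28.6%). Among all genes tested 24.4% passed in either direction and 12.6% as lower, so the share called is near its background. Scn3a was at 33.0, 32.7 and 33.5 CPM in control and 23.5, 20.5 and 23.5 CPM in knockout libraries (-0.55, SE 0.09, adjusted p = 0.00248). Control values were within 1 CPM of each other, and the knockout values lay well below. Scn9a, the most abundant pore gene of the family in these islets, moved the other way without passing: 45.3 to 56.6 CPM in control and 56.1 to 82.5 CPM in knockout libraries, with overlap (0.38, SE 0.16, adjusted p = 0.122). Scn8a (0.21, adjusted p = 0.270) and Scn7a (0.03, adjusted p = 0.949) had overlapping groups. Scn7a is also a gene of Schwann cells, whose joint marker list with neurons had 3 genes higher and 4 lower of 13, with a summed level of 248 to 267 CPM in control and 243 to 308 CPM in knockout libraries. Per kb the share of Scn9a in the summed pore level was 34.3 ± 1.73% in control and 42 ± 3.26% in knockout, the share of Scn3a 23.3 ± 1.59% and 15.2 ± 3.27%, and that of Scn8a 20.1 ± 1.45% and 22.0 ± 3.58%. The total was 14.7 ± 0.92 and 15.6 ± 2.40 CPM per kb, a difference within its spread.

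Scn1a, Scn4a and Scn2a1 stood at the lower edge of measurement. Scn1a had 23, 28 and 17 counts in control libraries 7, 10 and 16 and 7, 6 and 7 counts in knockout libraries 4, 5 and 6 (-1.42, SE 0.35, adjusted p = 0.0196). It did not pass with DESeq2 (adjusted p = 0.0718) or in 4 of the fits on 5 libraries (without knockout 4 or 5, control 7 or 10; adjusted p up to 0.0807), nor with the acinar term (-1.33, adjusted p = 0.167). Scn4a, the skeletal muscle pore, had 13, 15 and 5 counts in control and 12, 19 and 42 counts in knockout libraries, with knockout library 6 above the other 2, and it did not pass (1.55, adjusted p = 0.0934). Scn2a1 differed by -0.45 and did not pass. Scn11a was too low to be tested, and Scn10a had no count in any library, which over 98189516 counts in all allows a level of up to 0.0306 CPM (3 counts, counting error only).

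Of the 4 pacemaker channel genes, whose products open on hyperpolarisation, Hcn3 fell from 28.4, 25.7 and 27.8 CPM in control to 19.9, 17.3 and 16.9 CPM in knockout libraries. The gap between the groups was wider than either group (-0.60, SE 0.10, adjusted p = 0.00346). The gene span of Hcn3 overlaps that of Pklr, which was at 21.9 ± 0.73 CPM in control and 25.7 ± 9.67 CPM in knockout and did not pass (0.23, adjusted p = 0.546). Hcn2, the most abundant of the 4 by count, did not differ beyond its error (27.6 to 29.4 and 25.0 to 28.1 CPM, -0.09, 95% interval -0.28 to 0.10), and Hcn4 had a wider interval (-0.07, -0.48 to 0.34). Per kb the control order was Hcn2 (8.88 ± 0.30), Hcn3 (6.81 ± 0.36) and Hcn4 (3.44 ± 0.80), with no overlap between neighbours, but per kb of coding sequence Hcn3 (11.7) was slightly above Hcn2 (11.0).

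Within the release channels of the endoplasmic reticulum all 3 inositol trisphosphate receptor genes passed, and not in 1 direction. Among all genes tested 24.4% passed, and 3 genes are few to set against that share. Itpr1, the main one in these islets, rose from 235, 250 and 216 CPM in control to 292, 352 and 314 CPM in knockout libraries (0.45, SE 0.09, adjusted p = 0.00948). Itpr2, the least abundant, rose 2.17-fold, from 13.4, 13.6 and 10.4 CPM to 22.8, 28.9 and 29.8 CPM (1.12, SE 0.14, adjusted p = 9.58e-04). Itpr3 fell 1.68-fold, from 85.6, 86.3 and 75.1 CPM to 44.5, 43.6 and 59.7 CPM (-0.75, SE 0.13, adjusted p = 0.00443). For none of the 3 did any knockout library reach into the control range, and groups did not overlap in 42% of all genes tested. Each of the 3 calls also stood when any single library was left out (highest adjusted p = 0.0365 for Itpr1, 0.00511 for Itpr2 and 0.0220 for Itpr3).

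Per kb the receptor pool was 69.9 ± 0.66% Itpr1, 27.0 ± 0.52% Itpr3 and 3.11 ± 0.23% Itpr2 in control islets, and 80.6 ± 2.72%, 13.7 ± 2.45% and 5.73 ± 0.43% in knockout islets. These shares do not depend on how the libraries are scaled, and for each gene the ranges of the 2 groups did not overlap. The sum of the 3 was 33.9 ± 2.56 CPM per kb in control and 40.1 ± 3.33 CPM per kb in knockout. Itpr3 is also a gene of acinar cells, whose 20 markers summed to 14180 to 51004 CPM in control and 5085 to 14889 CPM in knockout libraries, with 2 markers lower and none higher. With the acinar term Itpr3 was at -0.58 (adjusted p = 0.105), while Itpr1 (0.66, adjusted p = 0.0121) and Itpr2 (1.52, adjusted p = 0.00130) passed. Ryanodine receptor genes, whose products release calcium in muscle and nerve, were low: Ryr3 at 3.22 ± 0.85 and 2.49 ± 0.86 CPM and Ryr2 at 1.12 ± 0.20 and 0.90 ± 0.36 CPM in control and knockout did not pass, and Ryr1 was not tested. Their summed level per kb was 0.285 ± 0.0515 in control.

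**Figure D3:**
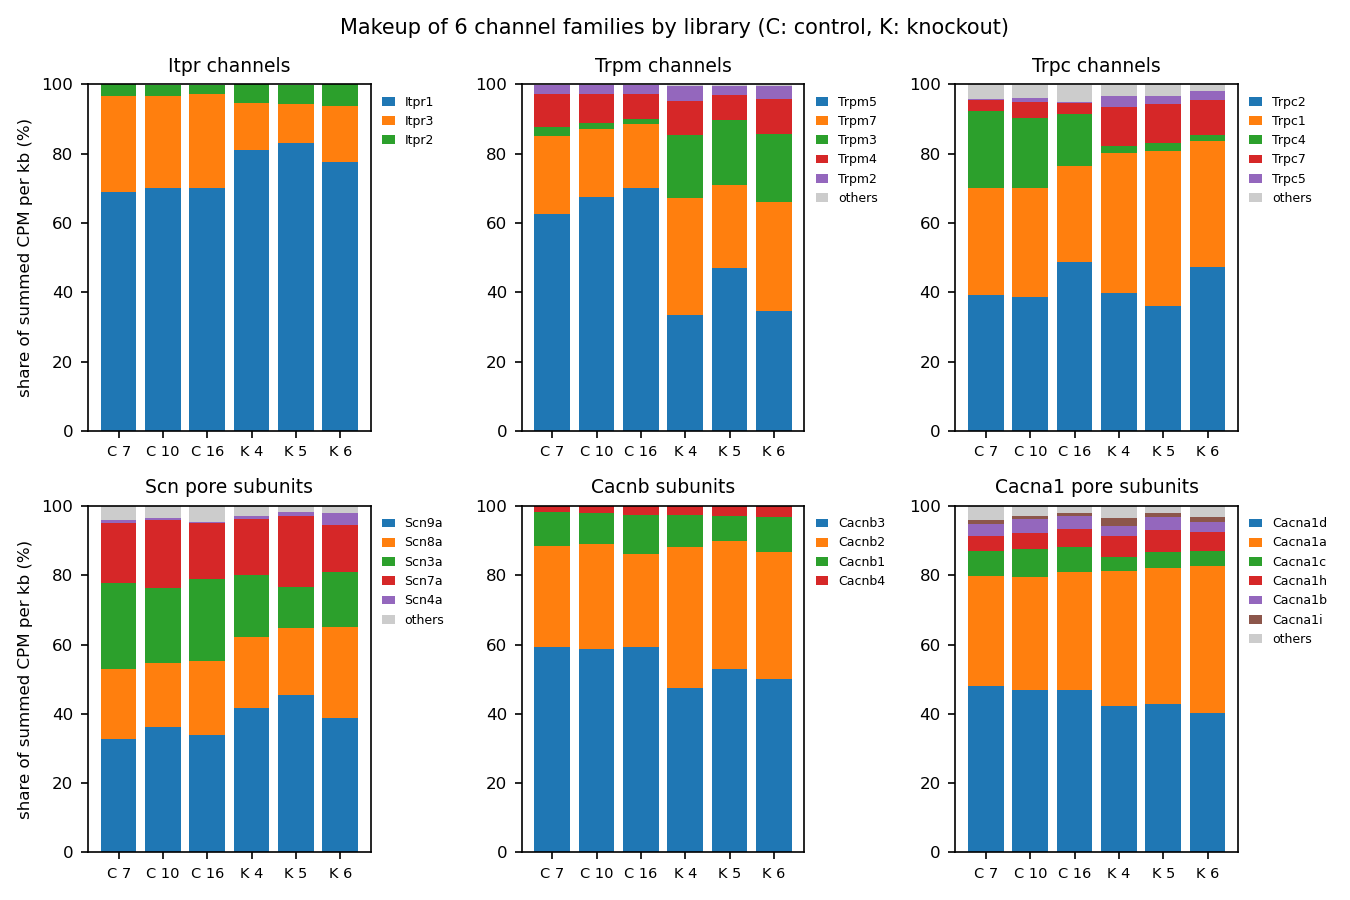
Share of each gene in the summed level (CPM per kb of exon length) of its family in control (C) and knockout (K) libraries, for 6 families; genes under 2% in every library, and any not described singly, are joined as others. Trpm3 goes from 1.91% to 18.8% of the Trpm sum, Trpc4 from 19.3% to 1.99% of the Trpc sum and Scn3a from 23.3% to 15.2% of the Scn pore sum (group means).

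The Trp families held the largest fall and the largest rise among the 56 genes. Trpc4 encodes a receptor-operated, calcium-permeable channel, and it was at 15.9, 13.1 and 8.99 CPM in control libraries 7, 10 and 16 and at 1.17, 1.41 and 1.04 CPM in knockout libraries 4, 5 and 6. Every knockout value lay far below the lowest control value, and the fall was 10.4-fold (-3.38, SE 0.26, adjusted p = 7.40e-05). Its close relative Trpc5 had 5, 15 and 4 counts in control and 37, 25 and 24 counts in knockout libraries, a 4.46-fold rise from a very low level (2.16, SE 0.44, adjusted p = 0.00874). Trpc7, of the diacylglycerol-sensitive subgroup, rose from 2.27, 3.33 and 1.85 CPM to 6.94, 7.84 and 6.83 CPM (1.52, SE 0.24, adjusted p = 0.00268). With the acinar term Trpc5 was at 2.13 (adjusted p = 0.111), and Trpc4 (-2.75, adjusted p = 0.00148) and Trpc7 (1.89, adjusted p = 0.0183) still passed.

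None of the remaining Trpc genes passed. Trpc1 had knockout libraries at 29.2 to 37.6 CPM above control libraries at 21.3 to 28.9 CPM, nearly touching (0.33, adjusted p = 0.115). Trpc6 was at 1.65 CPM or less in every library (-1.06, adjusted p = 0.0722). Trpc2 was at 20.7 to 23.7 CPM in control and 18.7 to 24.02 CPM in knockout (-0.13, adjusted p = 0.467); its span overlaps Xndc1 and their read-through gene Xntrpc, so its counts may not all be Trpc2. Per kb Trpc4 made up 19.3 ± 3.63% of the Trpc sum in control and 1.99 ± 0.26% in knockout, Trpc7 3.56 ± 1.06% and 11.0 ± 0.60%, and Trpc1 30.0 ± 2.14% and 40.6 ± 4.32%. The sum itself was 18.7 ± 1.77 and 17.5 ± 0.98 CPM per kb, within its spread. The adaptor gene Trpc4ap was at 167 to 170 CPM in control and 187 to 210 CPM in knockout libraries and narrowly missed the threshold (0.22, SE 0.07, adjusted p = 0.0554), while DESeq2 called it (adjusted p = 0.029), as did edgeR with no filter on low counts.

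In the Trpm family a rise and a fall of large size stood side by side. Trpm3, a heat- and steroid-sensitive calcium-permeable channel, was at 19.0, 14.3 and 12.0 CPM in control and 82.0, 120 and 98.7 CPM in knockout libraries. Even the lowest knockout library was above 4 times the highest control library, and the rise was 6.59-fold (2.72, SE 0.21, adjusted p = 2.96e-04). Among the RNAs encoded within the span of Trpm3, Mir204 had no counts in these files. Mir211 and Mir1963, which overlap Trpm1 and Ryr1, had none either. Whether these libraries could capture microRNAs is not known here, so this zero gives no level for Mir204. Trpm5, a calcium-activated monovalent cation channel that depolarises beta cells and taste cells, was at 134, 157 and 162 CPM in control and 42.7, 85.6 and 50.1 CPM in knockout libraries. The groups were apart, but knockout library 5 stood well above the other two (-1.35, SE 0.28, adjusted p = 0.0208). Leaving out knockout library 6, or any 1 of the control libraries, ended the call (adjusted p up to 0.0717), and its log2 fold change lay between -1.71 and -1.13 over all 6 fits on 5 libraries. With the acinar term Trpm5 was at -1.11 and did not pass (adjusted p = 0.173).

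Trpm4, the other calcium-activated monovalent channel, was at 21.3, 19.9 and 17.8 CPM in control and 12.8, 13.7 and 15.3 CPM in knockout libraries (-0.50, SE 0.11, adjusted p = 0.0133). The groups lay apart by less than for Trpm5, and the call was lost on leaving out knockout library 4 or control library 7 (adjusted p up to 0.0554) and with the acinar term (-0.29, adjusted p = 0.261). Trpm7, a channel fused to a kinase, did not differ beyond a narrow error (78.9 ± 4.43 and 75.9 ± 2.54 CPM, -0.06, 95% interval -0.21 to 0.10), and Trpm2, an oxidative stress sensor, differed by -0.10 (adjusted p = 0.556). Per kb Trpm5 was the leading Trpm gene in control, at 36.7 ± 3.61, above Trpm7 at 11.1 ± 0.62, Trpm4 at 4.56 ± 0.42, Trpm2 at 1.43 ± 0.08 and Trpm3 at 1.04 ± 0.24 CPM per kb. In knockout islets Trpm5 was at 14.4 ± 5.57, Trpm7 at 10.7 ± 0.36 and Trpm3 at 6.91 ± 1.31 CPM per kb, and the ranges of Trpm5 and Trpm7 overlapped. This order depends on the length used. Per kb of coding sequence Trpm3 (19.3) was above Trpm5 (17.1) and Trpm7 (13.6) in knockout. In control, Trpm3 (2.91) was then above Trpm2 (2.38), and Trpm5 (43.5) still led. Trpm1, Trpm6 and Trpm8 had 8 to 41 counts over the 6 libraries and were not tested.

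Of the Trpv and Trpa channels, Trpv4, an osmosensitive channel, was the single gene called. It was 1 of 2 Trpv genes tested, and 0 of 1 Trpa gene passed, against 24.4% of all genes tested. Trpv4 was at 2.58, 3.09 and 3.91 CPM in control and 1.78, 1.68 and 1.53 CPM in knockout libraries (-0.93, SE 0.26, adjusted p = 0.0315). Its groups did not overlap, but the call was lost with DESeq2 (adjusted p = 0.0532) and without any single library except control library 7 (highest adjusted p = 0.0972). With the acinar term it was at -1.30 (adjusted p = 0.0581). Endothelial cells express Trpv4 too, and 10 of 12 endothelial markers were lower, none was higher, and their summed level was 1120 to 1129 CPM in control and 715 to 844 CPM in knockout libraries. Smooth muscle and pericyte markers, of interest for Cacna1c and Trpc6, had none called of the 10 tested, and summed to 254 to 303 CPM in control and 209 to 262 CPM in knockout libraries. The part of these cells in the channel genes was not tested. Trpv2 differed by 0.14 (adjusted p = 0.729) and Trpa1 by -0.45 (2.47 to 3.53 and 1.61 to 2.41 CPM, adjusted p = 0.266). Trpv1, Trpv3 and Trpv6 had 9 to 50 counts in all, and Trpv5 had none in any library, with the same upper limit as Scn10a.

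The groups did not overlap in 28 of the 56 genes (8 higher and 20 lower in the knockout), against 42% of all genes tested (20% higher and 22% lower). Alternative processing changed part of the calls. With acinar marker content as a term 5 of the 56 were higher and 7 lower. The higher genes were then Trpm3, Trpc7, Itpr1, Itpr2 and Trpc1, and the lower ones included Trpc4, Cacna1c, Cacnb3, Hcn3, Scn3a and Cacng4. Without knockout library 4, 7 were higher and 9 lower, Scn8a and Scn4a among the higher and Cacng4 among the lower. A total of 10 genes were called under all 14 alternatives, among them Cacna1c, Cacnb3, Hcn3, Itpr1, Itpr2, Scn3a, Trpc4, Trpc7 and Trpm3. The share of all genes called under all 14 was not counted, so this number has no background.

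Genes that act with these channels were taken as 5 lists, 111 genes in all, of which 100 were tested, 23 were higher and 20 were lower (43% called, against 24.4% of all genes). The lists were drawn up with earlier results in view, so these counts are a description. For calcium entry and release partners, 8 of 28 tested genes rose and 6 fell (50% called, median log2 difference -0.15). Mcoln3, a lysosomal Trp-related channel, fell from 4.38 ± 0.39 to 0.26 ± 0.14 CPM (SD, n = 3 each, -4.07, SE 0.37, adjusted p = 1.55e-04). The junctophilins Jph3 (37.6 ± 1.11 to 16.4 ± 2.15 CPM, -1.19) and Jph4 (9.59 ± 0.19 to 3.30 ± 0.23 CPM, -1.53), which hold the plasma membrane close to the endoplasmic reticulum, fell. Fkbp1b, which binds release channels, rose from 75.7 ± 8.29 to 129 ± 8.93 CPM (0.77). Among further members named after their values were seen, the calcium store sensor Stim1 rose (119 ± 7.18 to 178 ± 13.4 CPM, 0.58, adjusted p = 0.00143). Of its pore partners, Orai3 rose (41.6 ± 2.73 to 49.8 ± 0.55 CPM, 0.26, adjusted p = 0.0289). Orai1 (-0.10, adjusted p = 0.740) and Orai2 (0.03, adjusted p = 0.936) did not pass.

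Calcium pumps and exchangers had 1 gene higher and 3 lower of 14 (median -0.31). The 28.6% called is near the 24.4% of all genes tested. The sodium-calcium exchangers Slc8a1 (78.8 ± 8.82 to 56.2 ± 0.42 CPM, -0.49) and Slc8a2 (9.86 ± 0.76 to 4.31 ± 0.65 CPM, -1.19) and the endoplasmic reticulum pump Atp2a3 (-0.39) fell, and the plasma membrane pump Atp2b1 rose (0.26). Atp2a3 lost its call on omission of knockout 4 or 6 or control 7 or 10 (adjusted p up to 0.0929), and Atp2b1 on omission of knockout 4 or 5 or control 10 or 16 (up to 0.124). Slc8a1 did not pass with the acinar term (-0.33, adjusted p = 0.115). Mitochondrial calcium uptake genes had 4 higher and none lower of 11 (36.4% called, against 24.4% of all genes tested, median 0.18). The 4 were Letm1 (0.39), 1500032L24Rik (0.36), Efha2 (0.25) and Vdac1 (0.23). Efha2 and Vdac1 missed the threshold on omission of any library but knockout 6 (adjusted p up to 0.106 and 0.152), and none of these 4 passed with the acinar term (adjusted p from 0.121 to 0.388).

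Among calcium channel regulators 4 of 26 were higher and 3 lower (median 0.12). The 26.9% called is near the 24.4% of all genes tested. The SNARE gene Snap25 (1.05), the calmodulin gene Calm2 (173 ± 6.72 to 262 ± 11.9 CPM, 0.60) and the active zone gene Rims3 (0.68) rose, and the syntaxin gene Stx1a fell (-0.87). Of these 4 Rims3 did not pass with the acinar term (adjusted p = 0.113). Of 21 sodium partner, pump and leak genes 6 were higher and 8 lower (66.7% called, median -0.10). The epithelial sodium channel subunit Scnn1b rose from 156 ± 23.1 to 355 ± 41.4 CPM (1.19, SE 0.13, adjusted p = 3.90e-04) and the sodium pump subunit Atp1b1 from 279 ± 13.4 to 414 ± 31.3 CPM (0.57), while the pump subunit Atp1b2 (59.8 ± 1.92 to 33.6 ± 2.95 CPM, -0.83) and the acid-sensing channel gene Accn1 (16.98 ± 1.10 to 9.38 ± 0.39 CPM, -0.85) fell.

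**Figure D4:**
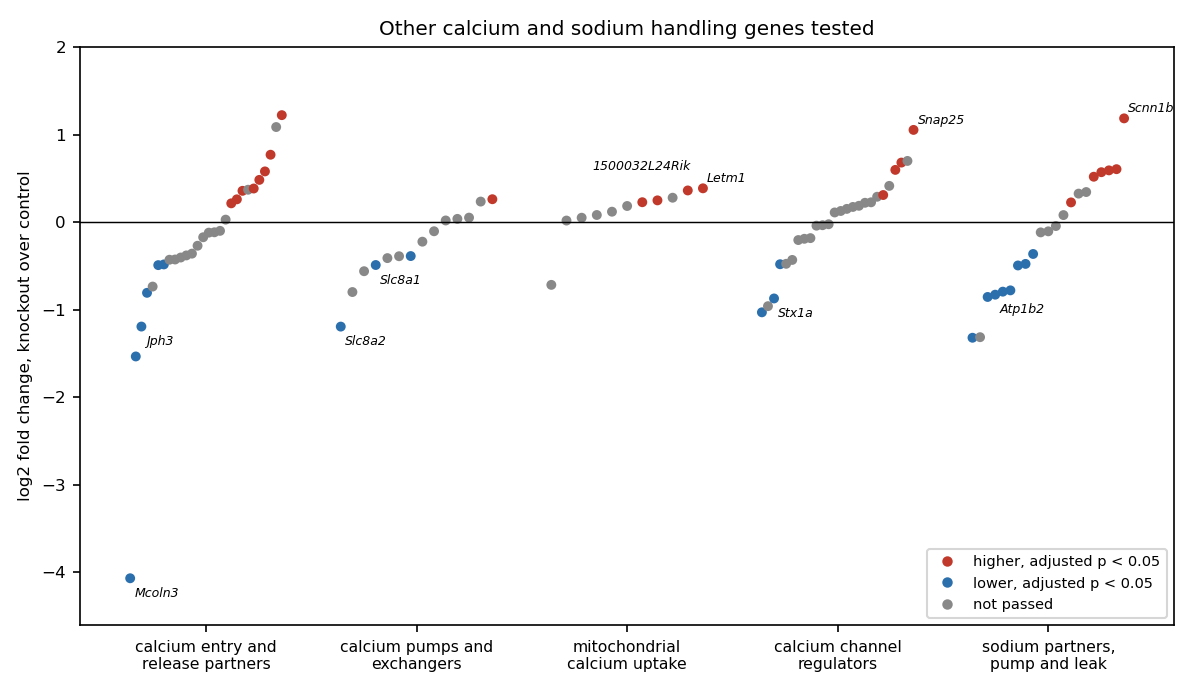
Log2 fold change of knockout over control for the tested genes of 5 lists of calcium and sodium handling, sorted within each list, with the 2 smallest p-values of each list labelled. Mcoln3 lies lowest at -4.07, and in the mitochondrial list no gene passed as lower.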

How the data were processed

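Bulk RNA-seq libraries of islets from 3 knockout and 3 control samples were analysed from whole-number counts per gene that the authors deposited. Per the labels' protocols these were TruSeq libraries read as single ends of 100 bp. The submitters' processing notes name TopHat2 2.1.0, bcl2fastq 1.8.4, DESeq, Cufflinks 2.0.2 and build mm9. The read counter, annotation and strand setting were not given in the sources used here. The authors' deposited table gives size-factor scaled mean signal per group, fold ratio, log2 fold change and p-values.

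Counts were fitted in R 4.3.3 with edgeR 4.0.16 over all 6 libraries: filterByExpr (minimum count 10, minimum total 15), TMM factors, robust dispersion, quasi-likelihood F test, Benjamini-Hochberg adjustment over 14770 genes. SEs and 95% intervals come from the same fit. The test was also run on simulated data with a common dispersion for all genes. That run does not cover genes that spread more widely between libraries. Each p-value measures the spread between libraries, which the labels do not tie to separate animals. Replicate counts differed beyond counting noise (chi-square over its degrees of freedom 15.9 to 41.5). Lengths are exon unions of GENCODE vM21 basic models (GRCm38, not the files' build), so levels per kb are approximate; all 73 genes had one. The alternatives used DESeq2 1.42.0, limma 3.58.1, other factors and filters, an acinar marker term and omission of each library. Genes were named if past the threshold, most abundant in their family, or among the 4 smallest p-values of a list; a few further ones were added after their values were seen. A small part of the genes is not reported here singly but stays in counts and sums. The genes and lists were chosen with earlier results of these data known.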

Additional observations from a re-analysis of the deposited data

How the results depend on the processing

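No paired analysis was possible because the groups share no replicate number. Across 14 alternatives none of the 19 called channel genes changed sign. Of the 37 that did not pass, 14 changed sign in at least 1 alternative. With acinar marker content as a term 11 did, among them Trpv2 (-0.18), Cacna1e (0.11), Cacna1g (0.12), Cacna2d3 (0.038), Cacna2d4 (0.22), Cacnb2 (0.050), Cacng2 (0.086), Hcn4 (0.48), Ryr2 (0.11) and Trpm7 (0.055); none of these passed there. Without a low-count filter Cacna1g (0.012), Cacnb2 (0.0011) and Cacnb4 (0.011) did, and Scn7a did with limma-voom (-0.0198) and upper-quartile factors (-0.00568). On omission of 1 library 8 did, among them (values over the 6 omissions) -0.13 to 0.050 for Cacna1g, -0.35 to 0.13 for Cacna2d2, -0.080 to 0.029 for Cacnb2, -0.13 to 0.14 for Cacnb4, -0.30 to 0.11 for Cacng2, -0.24 to 0.091 for Hcn4 and -0.31 to 0.19 for Scn7a. The acinar term gave 7 lower channel genes in place of 14. Among all tested it gave 929 higher and 787 lower genes in place of 1736 and 1864. It gave 8 higher and 11 lower handling genes in place of 23 and 20. The cause was not tested. The term partly follows the groups (14180 to 51004 CPM in control, 5085 to 14889 CPM in knockout) and adds a term to a fit on 6 libraries. Some calls were lost with little change in the estimate, as for Trpc5 (2.16 to 2.13) and Scn1a (-1.42 to -1.33). Other estimates moved more, as for Cacna2d1 (-0.34 to -0.14), Cacna1d (-0.37 to -0.20) and Trpm4 (-0.50 to -0.29). Leaving out 1 library gave 5 to 7 higher and 9 to 12 lower channel genes (9 without knockout library 4), 1153 to 1590 higher and 1225 to 1433 lower genes among all tested (1153 and 1225 without control library 10), 14 to 22 higher handling genes (14 without knockout library 5, 15 without control library 10) and 12 to 17 lower ones (12 without knockout library 6, 13 without control library 10), with fewer samples in each fit. No scaling moved the median of all genes by over 0.1 on the log2 scale. Levels per kb moved with the length used (exon union, coding length, chosen after the data were seen, or none). Genes near 1 CPM, such as Scn1a, rest on few counts per library.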
